A study of Homo sapiens with 18 samples.

Results

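The members are 34 genes of the SREBP pathway, which makes cholesterol and fatty acids, out of 35579 genes summed per gene and 13527 genes tested. They were chosen by name, with earlier results of these data known. The shares of members called are set beside those of all genes as descriptions. All 34 passed the filter on low counts. They fall into 18 enzymes of sterol synthesis, 5 genes that control SREBP, 4 genes of sterol transport and degradation, and 7 enzymes of fatty acid synthesis. Poly(A) RNA was sequenced from hiF-T, a human fibroblast-like line made from BJ skin fibroblasts that carries an inducible gene for telomerase (hTERT). In 4 libraries CDKN1A, a cyclin-dependent kinase inhibitor, was knocked down with CRISPR guides 1 and 2. In 4 libraries KDM1A, a histone lysine demethylase, was knocked down with guides 2 and 3. In 6 libraries SPP1, which encodes the secreted protein osteopontin, was knocked down with guides 1, 2 and 3. The 4 control libraries carried control guides 1 or 2 and are titled backbone, and all groups are labelled with the genotype WT. Each guide has biological replicates 1 and 2. The labels do not say how the guides lower the mRNA, whether the control guides match a place in the genome, or whether the replicates are separate cultures. The p-values therefore measure the spread between these samples, which may be technical.

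SREBP proteins are transcription factors held in the membrane of the endoplasmic reticulum by the escort protein SCAP and the anchor proteins INSIG1 and INSIG2. When sterols are low, SCAP carries SREBP to the Golgi, where proteases free the part that enters the nucleus and switches on the genes of sterol and fatty acid synthesis and of sterol uptake. SREBF2 encodes the form known mainly for sterol genes and SREBF1 the form known mainly for fatty acid genes. A second set of sterol sensors, the LXR receptors, is known to switch on ABCA1, MYLIP and SREBF1 when oxidised sterols are high. In bulk RNA, fewer cells that express a gene and less of its RNA per cell cannot be told apart.

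The libraries held 11907197 to 17016094 estimated counts each. CDKN1A and KDM1A fell in their own knockdowns (edgeR adjusted p = 0.00394 and 7.27e-06), and SPP1 was not called over its 3 guides together (0.0695). CDKN1A stood at 46.1% of the control mean with guide 1 and 70.4% with guide 2, KDM1A at 62.6% with guide 2 and 43.4% with guide 3, and SPP1 at 39.5%, 79.5% and 65.5% with guides 1, 2 and 3. The guide 3 libraries of SPP1 differed from each other, with 63.0 CPM (counts scaled to a common library total) of SPP1 in replicate 1 and 21.7 CPM in replicate 2, against 55.2 to 72.7 CPM in control libraries. The targets also differed in the other knockdowns. SPP1 had 126 to 135 CPM in KDM1A libraries (log2 1.03, edgeR adjusted p = 0.00793) and 99.7 to 131 CPM in CDKN1A libraries (0.85, 0.0645), all above the controls. CDKN1A had 458 to 528 CPM in KDM1A libraries (-0.33, 0.112) and 411 to 543 CPM in SPP1 libraries (-0.32, 0.116), against 540.0 to 695 CPM in control libraries. Of 7 fibroblast markers 6 had a mean above 1 CPM, and THY1, a common fibroblast surface marker, did not (0.194 CPM). Of the markers of other cell types, those with a mean above 1 CPM were KRT10 (57.4 CPM) and KRT14 (1.19 CPM) among 6 of keratinocytes, CD68 (60.8 CPM) among 5 of leukocytes, FABP4 (4.69 CPM) among 6 of adipocytes, MITF (1.43 CPM) among 5 of melanocytes and 0 of 4 of endothelial cells. KRT1 was at 0 in every library. CPM are scaled by edgeR's TMM factors throughout. A gene is called at an edgeR adjusted p under 0.05, and a log2 fold change is given with its SE.

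The members spanned a wide range of levels in control cells. Per transcript length, ACLY, which makes cytosolic acetyl-CoA from citrate, was highest with 181.0 ± 9.57 TPM, followed by FDPS, the farnesyl diphosphate synthase, with 146.0 ± 4.12 TPM and FASN, the fatty acid synthase, with 73.8 ± 11.7 TPM (SD, n = 4). The lowest levels were those of the sterol reductase TM7SF2 with 2.78 ± 1.16 TPM, of MYLIP, a ubiquitin ligase for lipoprotein receptors, with 1.67 ± 0.243 TPM, and of ABCA1, which exports cholesterol, with 0.48 ± 0.0734 TPM. Of the 33 neighbouring pairs in this order, 25 overlapped between libraries, so most of the order is not resolved beyond its spread. ACLY and FDPS did not overlap with each other or with any other member. SREBF2, with 28.5 ± 2.79 TPM, stood above SREBF1, with 14.6 ± 2.1 TPM, and their control libraries did not overlap. A single protein-coding transcript, SREBF2-201, held 78% of the TPM of SREBF2, and SREBF1-201 held 46.4% of the TPM of SREBF1, as kallisto divided the reads.

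**Figure D1:**
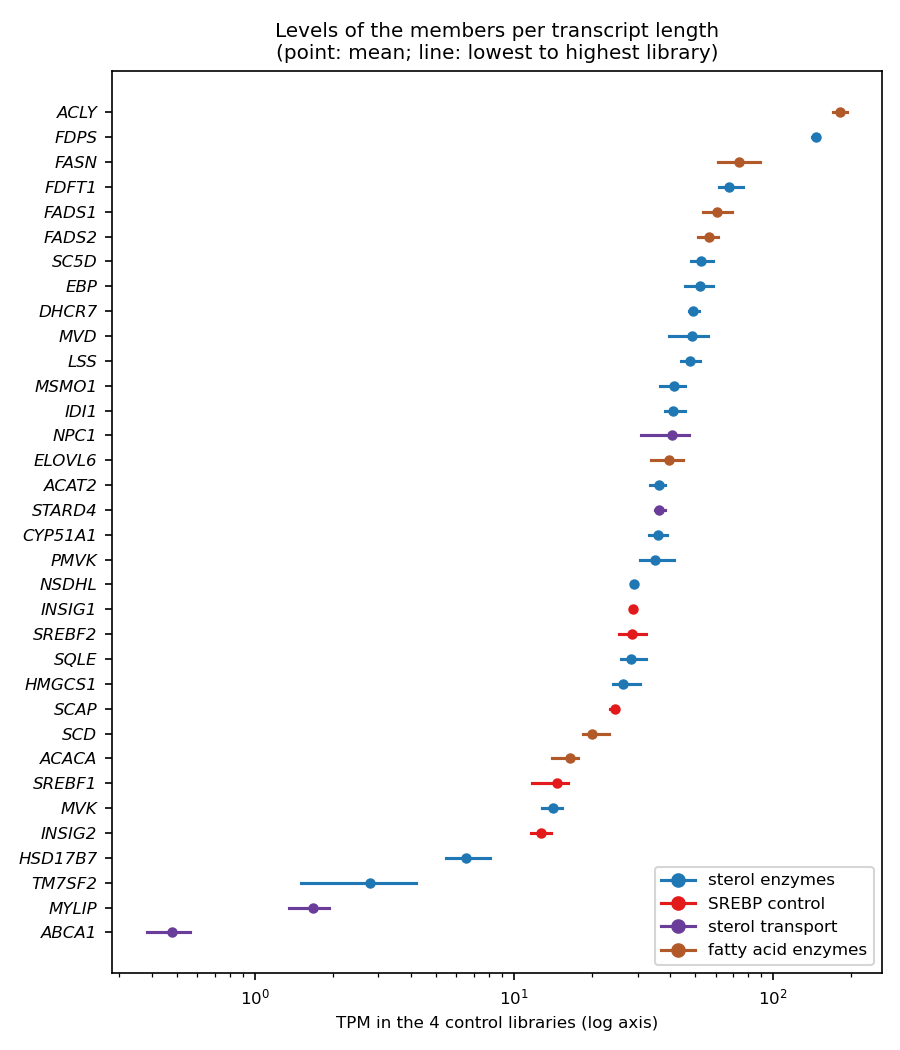
Level of each of the 34 members in the 4 control libraries, in TPM on a log axis, from highest at the top to lowest. Points are means, lines run from the lowest to the highest library, and colours give the branch. ACLY (181.0 TPM) and FDPS (146.0 TPM) stand above the others, and TM7SF2, MYLIP and ABCA1 are below 5 TPM.

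The promoters of the members shared short motifs. Promoters here run from 250 bases before to 50 bases after the start site in RefSeq on GRCh38.p14, and 30 of the 34 members had 40 such promoters. The CCAAT box, letters CCAAT on either strand, is bound by NF-Y, a factor known to act beside SREBP. It was in 62.5% of the members' promoters and in 75.0% of those of the sterol enzymes, against 34.6% of all 35116 promoters. The GC box GGGCGG was in 90.0% of the members' promoters, against 45.0% of all. The E-box CACGTG was in 15% of the members' promoters, against 7.26%. Overlapping promoters of a gene can hold the same box, which then counts more than once, as with the E-box of SC5D and CCAAT boxes of ACLY. Counted by member, the CCAAT box was in 21 and the E-box in 5 of the 30 members. The comparison is with all promoters, not only those of expressed genes. The classical sterol regulatory element, searched as TCACNCCAC on both strands, was in the promoter of SREBF2 alone among the members (2.5% of their promoters), against 1.13% of all promoters. A match describes these letters in this window and is not shown to be a bound site. Positions that motifs share were counted for each motif. The stretches below are shown for 5 members on which the following results turn and which hold a CCAAT box (the motif is in capitals on either strand, ATTGG being its reverse, and TCACCCCAC in SREBF2 is the sterol regulatory element). They lie at chr22:41832957-41833018 (+) for SREBF2, chr7:155297693-155297727 (+) for INSIG1, chr10:100346989-100347066 (+) for SCD, chr16:88663157-88663265 (-) for MVD and chr11:65111783-65111817 (+) for TM7SF2, all upstream of the start site.
SREBF2: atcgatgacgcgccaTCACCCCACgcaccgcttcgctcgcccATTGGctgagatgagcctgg
INSIG1: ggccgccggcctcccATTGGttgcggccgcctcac
SCD: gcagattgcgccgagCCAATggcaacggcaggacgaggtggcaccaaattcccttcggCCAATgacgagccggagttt
MVD: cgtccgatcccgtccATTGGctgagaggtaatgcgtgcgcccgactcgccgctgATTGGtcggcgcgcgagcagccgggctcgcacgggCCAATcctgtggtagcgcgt
TM7SF2: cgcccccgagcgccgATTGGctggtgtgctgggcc

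Among themselves, the sterol enzymes varied together. Over the 18 libraries, the median Pearson correlation of log2 CPM between pairs of the 18 sterol enzymes was 0.47 over 153 pairs, and 0.46 after the group means were taken out. Pairs of a sterol and a fatty acid enzyme had a median of 0.2, and 0.25 without the group means. Pairs of a sterol enzyme and a transport gene had -0.18, and -0.11 without the group means. These correlations are descriptions, since the members share libraries and depth. Differences between guides of a target remain after the group means are taken out, and no correlation of other gene pairs is given for comparison. The closest pair was IDI1, which interconverts isopentenyl diphosphate and its isomer, and NSDHL, a dehydrogenase that helps remove a methyl group from the sterol ring, at 0.91. MVD, the decarboxylase that ends the mevalonate steps, was closest to the other sterol enzymes, with a median of 0.73. SREBF2 followed them with a median of 0.58, and SREBF1 with 0.17, and these were 0.48 and 0.32 without the group means. Among the fatty acid enzymes, FADS1, FADS2 and SCD had medians of 0.10, 0.27 and 0.51 with the sterol enzymes. Without the group means these were 0.52, 0.50 and 0.45, and those of ACLY, FASN, ELOVL6 and ACACA were -0.14 to 0.18. TM7SF2 had a median of -0.10 with the other sterol enzymes, and of 0.24 without the group means. The most negative medians were those of MYLIP at -0.44 and of NPC1, which moves cholesterol out of lysosomes, at -0.33, and these were -0.01 and -0.08 without the group means. The desaturases SCD, FADS1 and FADS2 also ran together. The correlations were 0.67 for SCD and FADS1, 0.77 for SCD and FADS2, and 0.70 for FADS1 and FADS2. Without the group means they were 0.95, 0.94 and 0.93. The genes FADS1 and FADS2 overlap on opposite strands, and part of their reads may be shared. Outside this branch, SCD also ran with SREBF2 (0.83, and 0.81 without the group means) and with HSD17B7 (0.79 and 0.77).

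**Figure D2:**
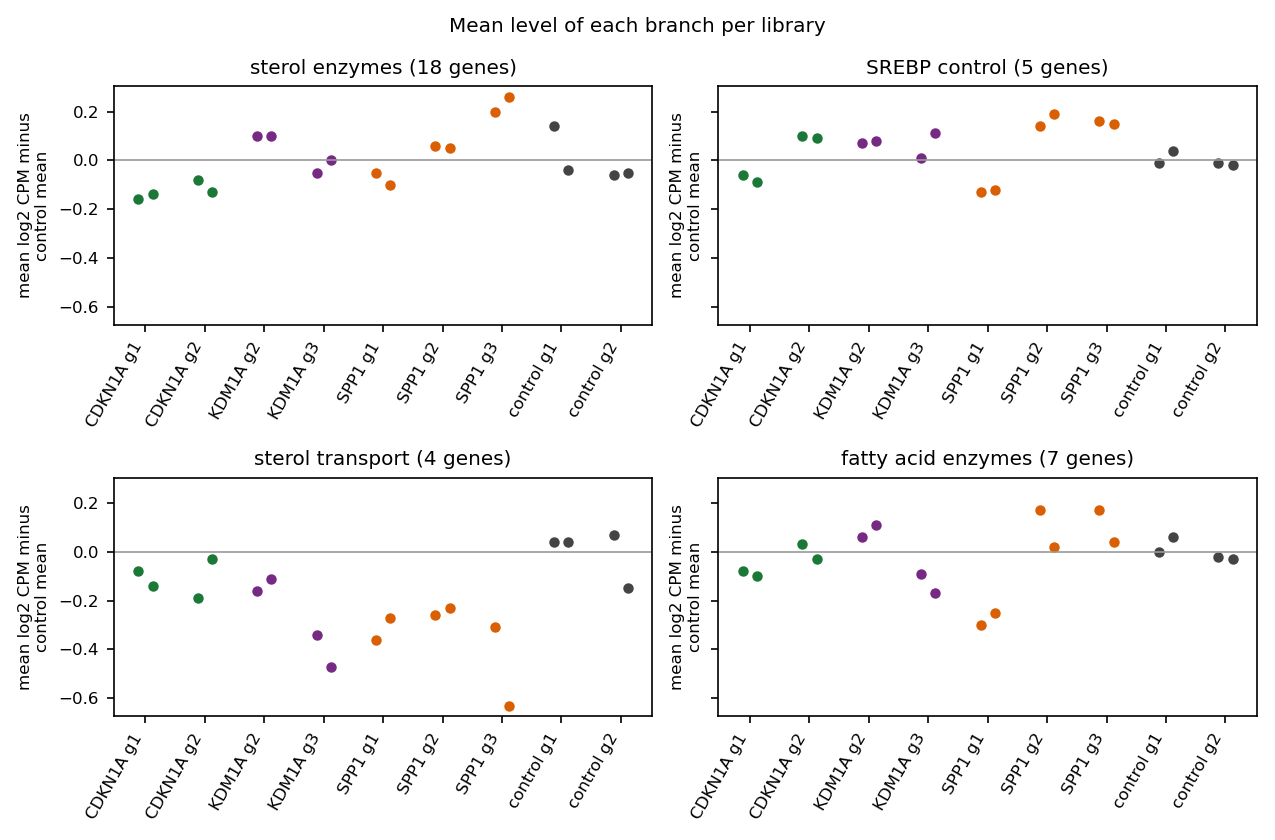
Mean log2 CPM of each branch per library, minus the mean of the 4 control libraries, by guide (g). Each point is a library. All 4 CDKN1A libraries lie below the control libraries for the sterol enzymes (-0.16 to -0.08, against -0.06 to 0.14), and both SPP1 guide 1 libraries lie below all others for the fatty acid enzymes (-0.30 and -0.25).

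No member was called in the CDKN1A knockdown. At this threshold 2.0% of all tested genes were called. At an unadjusted p under 0.05 there were 9 of 34 members, and DESeq2 called 3. The shares of all genes by these 2 measures are not given, here or below. Counts by an unadjusted p or by DESeq2 are therefore not results about the members. Of the 18 sterol enzymes 17 had a negative fold change, with a median of -0.11 on the log2 scale, against a median of all genes that rounds to 0. The sterol enzymes differed by a like amount between the control guides, where 15 of 18 were lower with guide 2 than with guide 1, with a median of -0.12. The members with the smallest p were 2 late enzymes of sterol synthesis and ACLY. DHCR7, the reductase of the last step to cholesterol, had 39.9 and 36.1 CPM with CDKN1A guide 1 and 41.8 and 33.0 CPM with guide 2, against 49.2, 49.1, 48.1 and 48.7 CPM in control libraries. All CDKN1A libraries were below all controls, at a log2 fold change of -0.37 ± 0.10, and the adjusted p of 0.0514 from edgeR missed the threshold. CYP51A1, the lanosterol demethylase, had 57.6, 59.6, 58.1 and 57.5 CPM in CDKN1A libraries, against 71.7, 69.4, 62.1 and 67.7 CPM in control libraries. These groups did not overlap either (log2 -0.22 ± 0.06, edgeR adjusted p = 0.0581). ACLY had 403, 390.0, 422 and 420.0 CPM in CDKN1A libraries, against 478, 479, 455 and 432 CPM in control libraries (log2 -0.17 ± 0.06, edgeR adjusted p = 0.11).

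In all, 8 members did not overlap between CDKN1A and control libraries, where 13.1% of all genes did not. INSIG1, whose protein holds SREBP back, was the member above all controls. It had 39.7 and 40.1 CPM with guide 1 and 50.5 and 52.5 CPM with guide 2, against 35.4, 36.2, 34.8 and 36.7 CPM in control libraries (log2 0.35 ± 0.12, edgeR adjusted p = 0.134). The members below all controls were MVD, CYP51A1, DHCR7, SCAP, STARD4, ACLY and FASN. STARD4 encodes a carrier of cholesterol between membranes. All groups share 1 estimate of the spread, and DHCR7 passed the threshold without some libraries of other groups. Its edgeR adjusted p was 0.0463 without KDM1A guide 2 replicate 2, 0.0341 without KDM1A guide 3 replicate 2 and 0.0437 without SPP1 guide 3 replicate 2. CYP51A1 passed without SPP1 guide 3 replicate 1 (edgeR adjusted p = 0.0325) and without SPP1 guide 3 replicate 2 (0.0401). Beside this, the summed level of the 6 adipocyte markers was 7.76 to 11.5 CPM in CDKN1A libraries, against 4.62 to 7.74 CPM in control libraries, carried by FABP4, a fatty acid binding protein, with ADIPOQ and PLIN1 under 1 CPM. Its part in the result was not tested.

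The guides against CDKN1A differed in INSIG1, which was higher with guide 2 than with guide 1 (log2 0.37 ± 0.06, edgeR adjusted p = 0.0054). It was the member called, where 1.28% of all genes were. INSIG1 fell short of the threshold without CDKN1A guide 1 replicate 1 (edgeR adjusted p = 0.0846), guide 1 replicate 2 (0.0721) or guide 2 replicate 2 (0.0913). FADS1, which makes a double bond in long polyunsaturated fatty acids, had 158 and 152 CPM with guide 2, against 133 and 130.0 CPM with guide 1 (edgeR adjusted p = 0.121). SC5D, the lathosterol desaturase, had 55.2 and 59.0 CPM with guide 2, against 50.6 and 47.5 CPM with guide 1 (edgeR adjusted p = 0.156). FADS1 was called without SPP1 guide 2 replicate 1 (edgeR adjusted p = 0.0394) or without SPP1 guide 2 replicate 2 (0.0346).

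**Figure D3:**
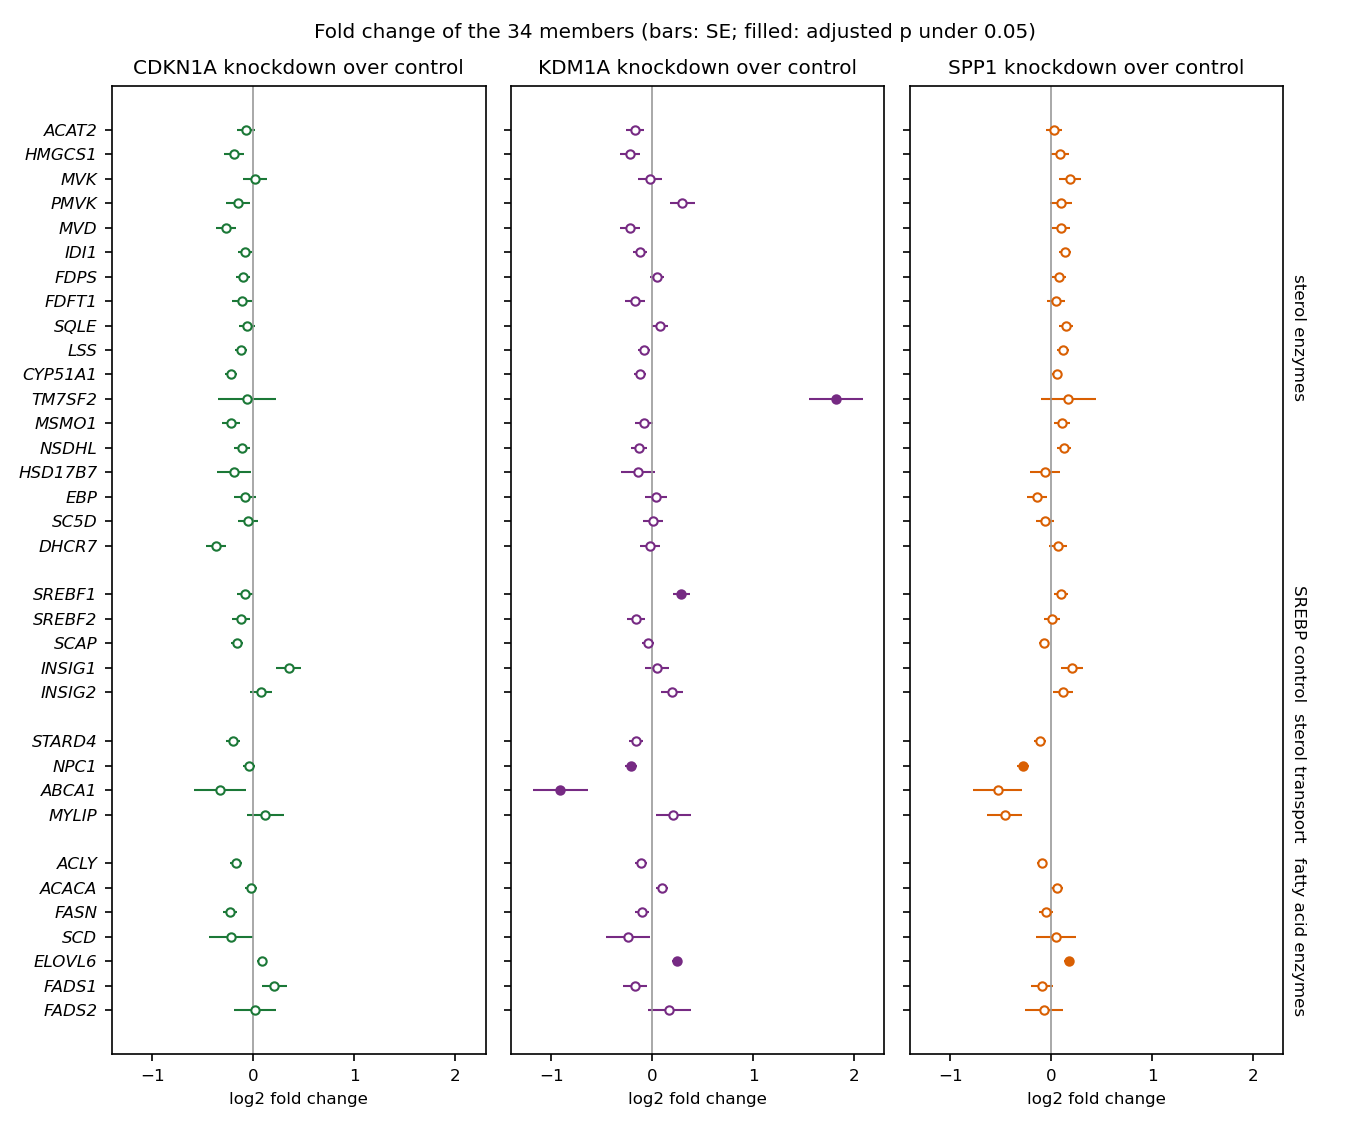
Log2 fold change of each member in CDKN1A, KDM1A and SPP1 knockdown libraries over control libraries, with bars for the SE. Filled points passed an adjusted p under 0.05 in edgeR's test. In the KDM1A knockdown TM7SF2 (1.82) and ABCA1 (-0.91) stand apart from the other members, and no member is filled in the CDKN1A knockdown.

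In the KDM1A knockdown, 3 members rose and 2 fell, so that 14.7% of the members were called, where 9.05% of all genes were. The members that rose were TM7SF2, SREBF1 and ELOVL6, and those that fell were ABCA1 and NPC1. Of the 18 sterol enzymes TM7SF2 was called and the other 17 were not, with a median log2 fold change of -0.08 in the branch. In all, 8 members did not overlap between KDM1A and control libraries, against 15.7% of all genes, and MVD, SREBF2 and STARD4, each below the controls, were the non-overlapping members that were not called.

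TM7SF2 encodes a sterol C14 reductase that acts after CYP51A1, a step that the lamin B receptor can also carry out. Its gene (ENSG00000149809) lies at chr11:65111845-65116384 on GRCh38 in GENCODE 29. TM7SF2 had 8.08 and 9.48 CPM with KDM1A guide 2 and 4.15 and 4.52 CPM with guide 3, against 2.14, 1.18, 1.92 and 2.17 CPM in control libraries. All KDM1A libraries were above all controls, by 3.53-fold (log2 1.82 ± 0.27, edgeR adjusted p = 0.000217). Fold changes came out positive with each guide set against the controls, at 2.25 ± 0.22 (edgeR adjusted p = 7.19e-06) with guide 2 and 1.23 ± 0.24 (0.00325) with guide 3. Guide 3, which left less KDM1A mRNA, gave the lower TM7SF2 level of both guides (log2 -1.02 ± 0.25, edgeR adjusted p = 0.0266). The call on guides was lost without any of the 4 KDM1A libraries, at adjusted p-values of 0.0752 without guide 2 replicate 1, 0.217 without guide 2 replicate 2, 0.163 without guide 3 replicate 1 and 0.128 without guide 3 replicate 2. The rise over control rests on few reads, with 57 to 152 counts in KDM1A libraries and 17 to 31 counts in control libraries. The protein-coding transcript TM7SF2-201 had 59.1 and 88.4 estimated counts with KDM1A guide 2 and 0 and 10.1 with guide 3, against 0 to 17.3 in control libraries. TM7SF2-202, also protein-coding, had 0 and 16.5 with guide 2 and 28.0 and 17.3 with guide 3, against 0 to 0.5 in control libraries. Guide 3 reads thus fell mostly on transcripts other than TM7SF2-201, as kallisto divided these few reads. VPS51, the neighbour that overlaps TM7SF2 on the same strand, had 61.0 ± 5.37 CPM in KDM1A libraries and 64.1 ± 5.39 CPM in control libraries (SD, n = 4; log2 -0.07, edgeR adjusted p = 0.701).

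SREBF1 had 25.9 and 25.8 CPM with KDM1A guide 2 and 22.5 and 24.9 CPM with guide 3, against 18.9, 21.3, 20.3 and 20.5 CPM in control libraries. The KDM1A libraries were all above the controls (log2 0.29 ± 0.08, edgeR adjusted p = 0.0228). The call was lost without control guide 1 replicate 1 (edgeR adjusted p = 0.0751), KDM1A guide 2 replicate 1 (0.0618) or KDM1A guide 2 replicate 2 (0.063). With an offset for transcript length the log2 change was 0.04 (edgeR adjusted p = 0.924). No source says whether kallisto used strand, so reads of SREBF1 and of RAI1, which overlaps it on the opposite strand, may not have been told apart. RAI1 had a log2 change of -0.08 (edgeR adjusted p = 0.463).

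ELOVL6, which lengthens saturated fatty acids, had 79.7, 83.9, 84.5 and 80.7 CPM in KDM1A libraries, against 64.6, 65.3, 70.7 and 75.7 CPM in control libraries. It rose by 0.25 ± 0.05 on the log2 scale (edgeR adjusted p = 0.00509), it was called with both guides set against the controls, and it kept its call without any 1 of the 18 libraries. Its call was lost without both control guide 1 libraries (log2 0.17, edgeR adjusted p = 0.165), with a length offset (0.26, 0.226) and with the libraries of a guide summed (0.26, 0.144).

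ABCA1 had 2.22 and 2.25 CPM with KDM1A guide 2 and 1.02 and 1.32 CPM with guide 3, against 3.46, 3.62, 3.24 and 2.41 CPM in control libraries. It fell to 53.4% of the control level (log2 -0.91 ± 0.27, edgeR adjusted p = 0.0418), on 14 to 36 counts in KDM1A libraries and 31 to 52 counts in control libraries. Its call was lost without any of 8 libraries, at adjusted p-values of 0.101, 0.122 and 0.0783 without control guide 1 replicate 1, guide 1 replicate 2 and guide 2 replicate 1, of 0.123 and 0.121 without KDM1A guide 3 replicate 1 and replicate 2, of 0.0527 and 0.0529 without CDKN1A guide 2 replicate 1 and replicate 2, and of 0.0503 without SPP1 guide 3 replicate 1. With each guide set against the controls, ABCA1 fell with guide 3 (log2 -1.42 ± 0.27, edgeR adjusted p = 0.00298), and guide 2 gave -0.50 ± 0.25 (0.207). The difference between the guides was not called (edgeR adjusted p = 0.111). NPC1 had 64.9, 66.9, 61.5 and 57.8 CPM in KDM1A libraries, against 68.4, 74.5, 75.6 and 71.7 CPM in control libraries (log2 -0.21 ± 0.06, edgeR adjusted p = 0.0432). This was near the threshold, and the call was lost without any of 13 of the 18 libraries, with an adjusted p of up to 0.157, reached without KDM1A guide 3 replicate 2. RMC1, which overlaps NPC1 on the opposite strand, had 22.4 ± 1.6 CPM in KDM1A libraries and 26.0 ± 1.36 CPM in control libraries (SD, n = 4; edgeR adjusted p = 0.0717).

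**Figure D4:**
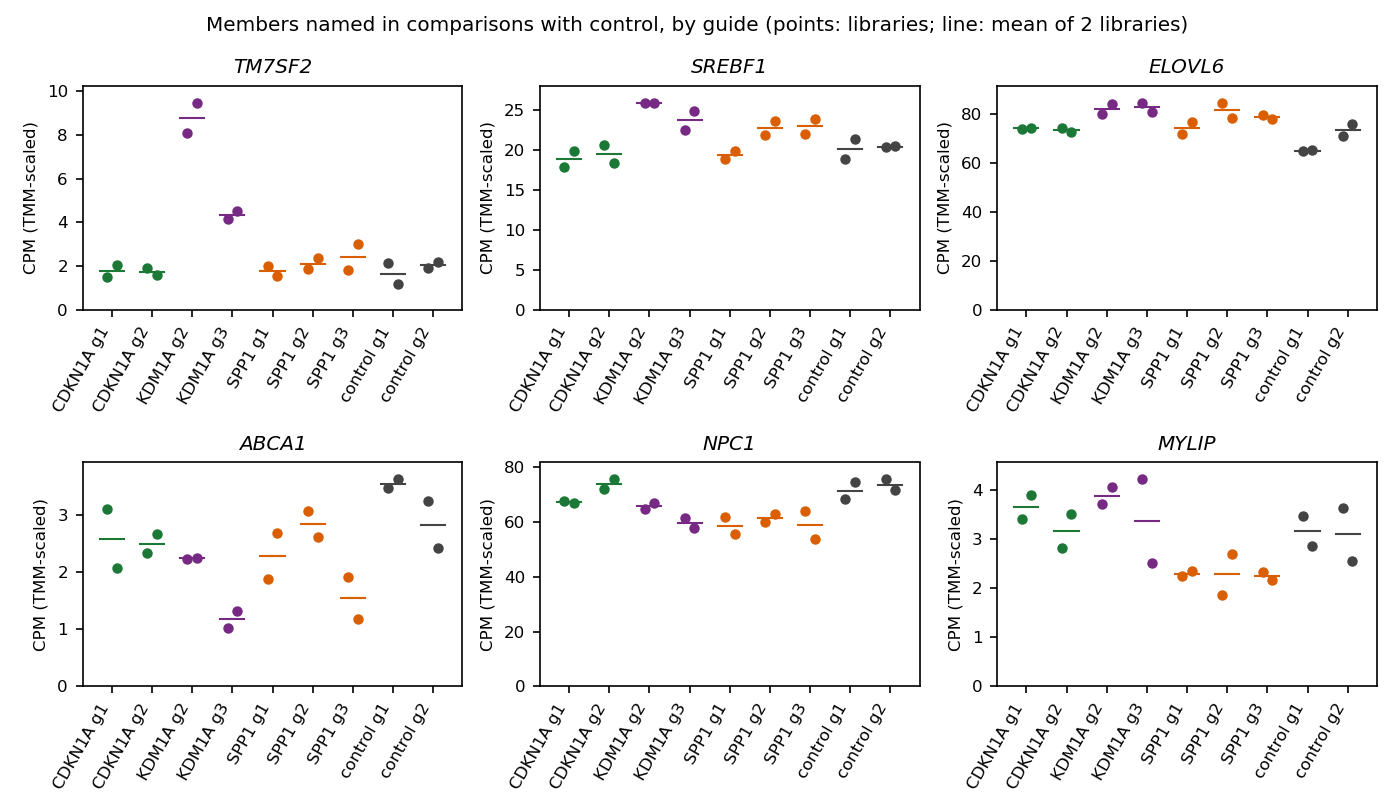
CPM of 6 members in each library, by target and guide (g). Points are libraries and lines are the means of the 2 libraries of a guide. TM7SF2 is highest with KDM1A guide 2 (8.08 and 9.48 CPM) and lower with guide 3 (4.15 and 4.52 CPM), NPC1 is below all controls in every KDM1A and SPP1 library, and MYLIP is at 2.7 CPM or less in every SPP1 library.

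The guides against KDM1A differed in more than 1 member. With guide 3, 6 members were lower than with guide 2 and none was higher, which is 17.6% of the members, where 6.15% of all genes were called and 4.04% were called lower. These were TM7SF2, SC5D and DHCR7 among the sterol enzymes and ACLY, FADS1 and FADS2 among the fatty acid enzymes. SC5D had 47.2 and 45.9 CPM with guide 3, against 64.7 and 64.4 CPM with guide 2 (log2 -0.47 ± 0.07, edgeR adjusted p = 0.00044). Set against the control libraries, SC5D fell with guide 3 (log2 -0.24, edgeR adjusted p = 0.0129) and rose with guide 2 (log2 0.23, edgeR adjusted p = 0.0109), so the mean over both guides was close to control. FADS2, the desaturase that acts before FADS1, had 75.1 and 70.0 CPM with guide 3, against 111 and 117 CPM with guide 2, and control libraries had 78 to 88.2 CPM. Guide 3 gave 63.7% of the guide 2 level of FADS2 (log2 -0.65 ± 0.09, edgeR adjusted p = 0.000673).

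DHCR7 had 43.3 and 39.6 CPM with KDM1A guide 3, against 54.0 and 55.2 CPM with guide 2 (log2 -0.40 ± 0.09, edgeR adjusted p = 0.0139). FADS1 had 104 and 97.1 CPM with guide 3, against 119 and 122 CPM with guide 2 (log2 -0.27 ± 0.07, edgeR adjusted p = 0.0288). ACLY had 410.0 and 388 CPM with guide 3, against 456 and 458 CPM with guide 2 (log2 -0.19 ± 0.05, edgeR adjusted p = 0.0431). In these 3 genes both guide 3 libraries lay below both guide 2 libraries. SC5D and FADS2 kept their calls without any 1 library. DHCR7 lost its call without guide 2 replicate 1 (edgeR adjusted p = 0.0724), guide 2 replicate 2 (0.116) or guide 3 replicate 2 (0.157), FADS1 without any of the 4 KDM1A libraries (0.0725 to 0.241), and ACLY without any of 13 of the 18 libraries (up to 0.317, without KDM1A guide 3 replicate 2). FADS1 and FADS2 overlap each other on opposite strands, so part of their reads may be shared. FEN1, with a mean of 94.8 CPM, overlaps FADS2 on the same strand. Its log2 change between the KDM1A guides was -0.22 (edgeR adjusted p = 0.162). With a length offset none of these members but DHCR7 was called, with log2 changes of -0.33 for FADS2 (edgeR adjusted p = 0.264) and -0.57 for SC5D (0.0642).

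In the SPP1 knockdown, ELOVL6 rose and NPC1 fell, which is 5.88% of the members against 5.46% of all genes. NPC1 had 53.8, 60.9 and 63.9 CPM as the lowest, median and highest of the 6 SPP1 libraries, against 68.4, 74.5, 75.6 and 71.7 CPM in control libraries. It was the 1 member of 34 whose libraries did not overlap, where 6.34% of all genes did not (log2 -0.28 ± 0.06, edgeR adjusted p = 0.00922). NPC1 also fell with each of the 3 guides set against the same controls, at log2 changes of -0.31 ± 0.07, -0.24 ± 0.07 and -0.30 ± 0.07 with guides 1, 2 and 3 (edgeR adjusted p = 0.0225, 0.0472 and 0.0142). Its call was lost without control guide 1 replicate 2 (edgeR adjusted p = 0.05), without both libraries of control guide 1 (0.0881) or of control guide 2 (0.067), and with a length offset (0.189). ELOVL6 had a lowest, median and highest value of 71.8, 78.1 and 84.4 CPM in SPP1 libraries, against 64.6, 65.3, 70.7 and 75.7 CPM in control libraries, and the groups overlapped (log2 0.18 ± 0.05, edgeR adjusted p = 0.0427). Its call was lost without any of 14 of the 18 libraries, with an adjusted p of up to 0.172, reached without control guide 1 replicate 2.

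The sterol enzymes had a positive log2 fold change in 15 of 18 cases in the SPP1 knockdown, with a median of 0.10, and none was called (2 at an unadjusted p under 0.05). All 4 transport genes had a negative log2 fold change in the SPP1 knockdown, with a median of -0.37, and NPC1 alone was called. MYLIP had 1.87, 2.28 and 2.7 CPM as the lowest, median and highest SPP1 library, against 3.46, 2.86, 3.63 and 2.56 CPM in control libraries. These overlapped, and the log2 change of -0.46 ± 0.17 was not called (edgeR adjusted p = 0.114). The comparisons of KDM1A and of SPP1 with control share the control libraries, so that NPC1 and ELOVL6 being called in both is not independent evidence. The control guide 1 libraries, at 64.6 and 65.3 CPM, had the lowest ELOVL6 of the 18 libraries.

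The guides against SPP1 split the pathway. With guide 1, which left the least SPP1 mRNA on average, 8 members were lower than with guides 2 and 3 and none was higher. This is 23.5% of the members, where 3.9% of all genes were called and 1.77% were called lower. Of the 34 members 30 had a negative fold change, with a median log2 of -0.20, against -0.01 over all genes. The called members were the desaturases SCD, FADS1 and FADS2, the regulators INSIG1 and SREBF2, and the sterol enzymes FDFT1, SQLE and MVD. The single library with the least SPP1 was guide 3 replicate 2 (21.7 CPM, against 24.2 and 26.9 CPM with guide 1). In it all 8 of these members were above both guide 1 libraries, with FADS2 at 102 CPM and SCD at 75.8 CPM. Whether the members follow the SPP1 level was not tested. With guide 1 set against the controls, no sterol enzyme and no gene of SREBP control was called.

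SCD, which makes monounsaturated fatty acids, had 37.9 and 44.9 CPM with SPP1 guide 1, against 99.9 and 65.9 CPM with guide 2 and 92.5 and 75.8 CPM with guide 3. Control libraries had 60.9 to 74.0 CPM. Guide 1 gave 49.5% of the level of the other guides (log2 -1.01 ± 0.13, edgeR adjusted p = 0.000993). FADS2 had 49 and 49.9 CPM with guide 1, against 104 and 78.5 CPM with guide 2 and 91.9 and 102 CPM with guide 3 (log2 -0.93 ± 0.09, edgeR adjusted p = 7.11e-05). The guide 1 libraries were the lowest of all 18 for FADS2, and for SCD KDM1A guide 3 replicate 2, at 43.5 CPM, lay between them. FADS1 had 89.2 and 93.0 CPM with guide 1, against 137 and 117 CPM with guide 2 and 129 and 133 CPM with guide 3 (log2 -0.50 ± 0.06, edgeR adjusted p = 0.000342). With guide 1 set against the controls, SCD, FADS1 and FADS2 fell, at log2 changes of -0.68, -0.44 and -0.74 (edgeR adjusted p = 0.00856, 0.000446 and 0.000172). With guides 2 and 3 these genes were not called against the controls. FEN1, which overlaps FADS2 on the same strand, had a log2 change of -0.02 between the SPP1 guides (edgeR adjusted p = 0.905). ELOVL6, FASN, ACLY and ACACA, the carboxylase that makes malonyl-CoA, were not called between the SPP1 guides.

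INSIG1 had 32.5 and 32.7 CPM with SPP1 guide 1, against 44.9 and 43.1 CPM with guide 2 and 49.4 and 45.9 CPM with guide 3 (log2 -0.49 ± 0.05, edgeR adjusted p = 0.000214). Control libraries, at 34.8 to 36.7 CPM, lay between, and INSIG1 rose over the controls with guide 2 (log2 0.30, edgeR adjusted p = 0.00244) and with guide 3 (log2 0.42, edgeR adjusted p = 0.000146). SREBF2 had 71.4 and 68.3 CPM with guide 1, against 87.6 and 85.0 CPM with guide 2 and 100 and 82.4 CPM with guide 3 (log2 -0.35 ± 0.07, edgeR adjusted p = 0.0137). FDFT1, the squalene synthase, had 60.9 and 56.6 CPM with guide 1, against 63.9 and 62.2 CPM with guide 2 and 80.3 and 84.4 CPM with guide 3 (log2 -0.30 ± 0.06, edgeR adjusted p = 0.0182). For FDFT1 the guide 3 libraries were the ones that stood apart. SQLE, the squalene epoxidase, and MVD were lower with guide 1 by the same measure, at log2 -0.29 ± 0.07 (edgeR adjusted p = 0.0222) and -0.29 ± 0.07 (0.0399). SQLE stood at 96.8%, 117% and 120% of the control mean with guides 1, 2 and 3, and MVD at 93.0%, 101% and 128%.

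SCD, FADS1, FADS2 and INSIG1 kept their calls between SPP1 guides without any 1 of the 18 libraries. SREBF2 lost its call without guide 1 replicate 1 (edgeR adjusted p = 0.0986) or guide 1 replicate 2 (0.161), as did FDFT1 (0.0848 and 0.225) and SQLE (0.155 and 0.188, and 0.0777 without guide 2 replicate 1), and MVD lost it without any of 11 libraries (up to 0.275, without guide 1 replicate 2). With a length offset SCD, FADS2 and INSIG1 were still called, and the other 5 were not. Those were FADS1 (log2 -0.46, edgeR adjusted p = 0.0572), FDFT1 (-0.20, 0.304), SQLE (-0.22, 0.319), MVD (-0.28, 0.335) and SREBF2 (-0.23, 0.388).

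**Figure D5:**
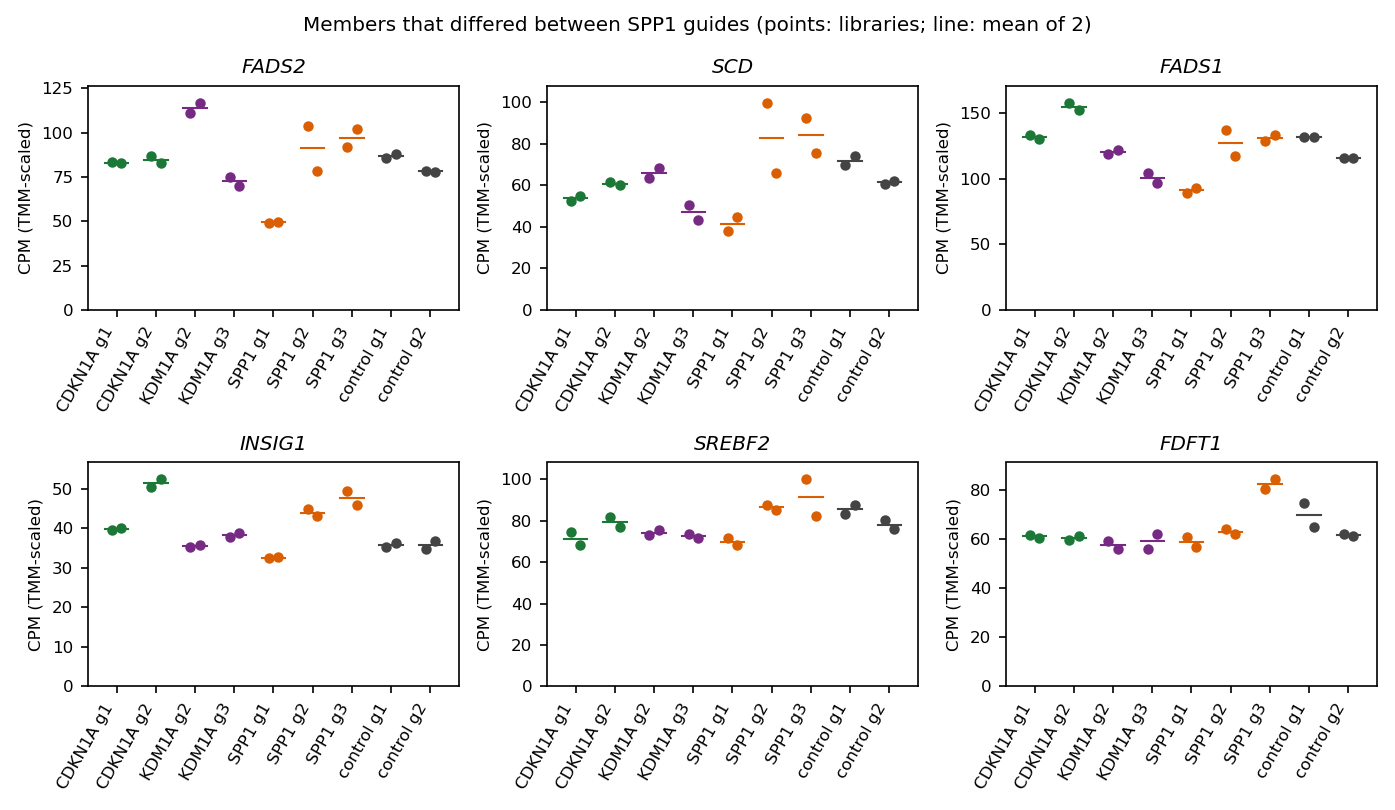
CPM of 6 members called between SPP1 guide 1 and guides 2 and 3, in each library by target and guide (g). Points are libraries and lines are the means of the 2 libraries of a guide. The means of FADS2, SCD and FADS1 are lowest with SPP1 guide 1, and FDFT1 is highest with SPP1 guide 3 (80.3 and 84.4 CPM).

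Set against the controls guide by guide, SPP1 guide 3 called 9 members higher and 2 lower, which is 32.4% of the members against 10.5% of all genes. The 7 sterol enzymes that rose were MVD (log2 0.36), FDFT1 (0.33), IDI1 (0.32), NSDHL (0.31), SQLE (0.27), FDPS (0.23) and LSS (0.22), the cyclase that makes lanosterol, with edgeR adjusted p-values of 0.00174 to 0.0391. INSIG1 and ELOVL6 rose too, and NPC1 and ABCA1 fell. SPP1 guide 1 called no member higher and 4 lower (11.8% of the members, against 4.58% of all genes), and guide 2 called 4 higher and 1 lower (14.7%, against 10.6%). CDKN1A guide 1 called 2 members lower (5.88%, against 4.69%), and guide 2 called 2 higher and 2 lower (11.8%, against 6.22%). KDM1A guide 2 called 5 higher and 1 lower (17.6%, against 14.1%), and guide 3 called 2 higher and 6 lower (23.5%, against 11.5%). These 7 comparisons share their controls. DHCR7 fell with both CDKN1A guides, at log2 -0.36 ± 0.08 with guide 1 (edgeR adjusted p = 0.0146) and -0.38 ± 0.08 with guide 2 (0.00992). In this fit the spread is that between libraries of the same guide, and it was smaller (a biological coefficient of variation of 6.92%, against 9.32% between libraries of a group). No member was called between control guides 2 and 1, where 1.34% of all genes were, DESeq2 called 0 as well, and 7 members had an unadjusted p under 0.05. Those of smallest p were ELOVL6, with 70.7 and 75.7 CPM with control guide 2 and 64.6 and 65.3 CPM with guide 1 (edgeR adjusted p = 0.197), EBP, the sterol isomerase, with 28.3 and 25.9 CPM and 36.4 and 30.1 CPM (0.198), and MSMO1, a methyl sterol oxidase, with 50.3 and 46.8 CPM and 62.1 and 53.8 CPM (0.215).

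The knockdowns were also compared with each other. In the CDKN1A knockdown 8 of the 18 sterol enzymes were lower than in the SPP1 knockdown and none was higher, where 12% of all genes were called and 5.66% were called lower. These were DHCR7 (log2 -0.44 ± 0.09, edgeR adjusted p = 0.00353), MVD (-0.37), MSMO1 (-0.33), CYP51A1 (-0.28), HMGCS1 (-0.28), the synthase that opens the mevalonate steps, LSS (-0.24), NSDHL (-0.24) and IDI1 (-0.22). The other adjusted p-values from edgeR were 0.00263 to 0.044. HMGCS1, NSDHL and IDI1 lost their calls without both libraries of SPP1 guide 3, and all 8 without those of CDKN1A guide 2. NPC1 and MYLIP were higher in the CDKN1A knockdown (log2 0.24 and 0.58, edgeR adjusted p = 0.0104 and 0.0264). No fatty acid enzyme and no gene of SREBP control was called. The 10 members called became 6 without CDKN1A guide 1 replicate 1 or replicate 2 and 4 without CDKN1A guide 2 replicate 2.

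In the KDM1A knockdown 6 sterol enzymes were lower than in the SPP1 knockdown, where 11.9% of all genes were called and 5.0% were called lower. They were HMGCS1, MVD, IDI1, LSS, CYP51A1 and NSDHL, at log2 changes of -0.32 to -0.18 (edgeR adjusted p = 0.0125 to 0.0344). HMGCS1, MVD, LSS and NSDHL lost their calls without both libraries of SPP1 guide 3, and all 6 without those of KDM1A guide 2. TM7SF2 was higher (log2 1.65 ± 0.23, edgeR adjusted p = 0.000127), as was MYLIP (0.67 ± 0.16, 0.0112). The 8 members called became 3 without KDM1A guide 2 replicate 1, 1 without KDM1A guide 2 replicate 2 and 4 without SPP1 guide 3 replicate 1. Between CDKN1A and KDM1A, 5 members were called, 14.7% of the members against 14.9% of all genes. FADS1 was higher in the CDKN1A knockdown (log2 0.37), and TM7SF2 (-1.88), PMVK, the phosphomevalonate kinase (-0.45), SREBF1 (-0.37) and DHCR7 (-0.35) were lower, with edgeR adjusted p-values of 9.79e-05 to 0.042. The count was 3 without CDKN1A guide 2 replicate 2 or without KDM1A guide 2 replicate 1.

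Among the members with little said so far, ACAT2, an acetyl-CoA acetyltransferase, MVK, the mevalonate kinase, and HSD17B7, a keto-sterol reductase, were called in no comparison, with log2 fold changes over control of -0.19 to 0.19 in the 3 knockdowns. INSIG2, with 0.08, 0.20 and 0.12 in the CDKN1A, KDM1A and SPP1 knockdowns, was called with SPP1 guide 2 set against the controls (log2 0.36, edgeR adjusted p = 0.0326). The overlap of ACAT2 with TCP1 and of MVK with MMAB, on opposite strands, makes their reads uncertain. HSD17B7 has a near-identical pseudogene, HSD17B7P2, to which kallisto assigned 0.46 CPM, so its level of 4.87 ± 0.77 CPM in control libraries (SD, n = 4) is uncertain as well.

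Further genes of the pathway fall into 4 short lists, also chosen with earlier results of these data known. The share called over all genes was 2.0%, 9.05% and 5.46% in the CDKN1A, KDM1A and SPP1 knockdowns. Of 11 genes that process or degrade SREBP and its partners, none was called by edgeR in the 3 comparisons with control, with 1, 2 and 0 at an unadjusted p under 0.05 in the CDKN1A, KDM1A and SPP1 knockdowns, where DESeq2 called 0, 1 and 0. Of 22 further genes of lipid synthesis, SLC25A1, the mitochondrial citrate carrier that supplies ACLY, fell in the CDKN1A knockdown, with 65.1 ± 4.34 CPM in CDKN1A libraries and 78.6 ± 4.34 CPM in control libraries (SD, n = 4; log2 -0.27, edgeR adjusted p = 0.0303). LPIN1, a phosphatidate phosphatase, rose in the KDM1A knockdown (log2 0.24, edgeR adjusted p = 0.0294) and in the SPP1 knockdown (0.26, 0.0201). Of 12 genes of sterol uptake, storage and efflux, 10 were tested. VLDLR, a lipoprotein receptor, rose in the CDKN1A knockdown, with 17.8 ± 2.67 CPM in CDKN1A libraries and 11.3 ± 1.94 CPM in control libraries (SD, n = 4; log2 0.66, edgeR adjusted p = 0.022). LIPA, the lysosomal acid lipase, rose in the SPP1 knockdown (log2 0.27, edgeR adjusted p = 0.0379). Of 8 genes around the LXR receptors, 7 were tested, and RXRA, the partner receptor of LXR, fell in the KDM1A knockdown (log2 -0.39, edgeR adjusted p = 0.00235). RXRA also differed between control guides 2 and 1 (log2 -0.31, edgeR adjusted p = 0.0348). Between knockdowns, 4 of the 10 tested genes of uptake, storage and efflux were called in CDKN1A over SPP1 (40.0%, against 12% of all genes). VLDLR (log2 0.57, edgeR adjusted p = 0.00662), NPC2, a lysosomal cholesterol carrier (0.29, 0.00858), and OSBPL8, a lipid transfer protein (0.17, 0.0254), were higher in the CDKN1A knockdown, and LIPA was lower (-0.36, 0.00421). In KDM1A over SPP1, 2 of the 7 tested genes around the LXR receptors were called lower and 1 higher (42.9%, against 11.9% of all genes). Those lower in the KDM1A knockdown were RXRA (log2 -0.24, edgeR adjusted p = 0.0268) and SMPDL3A, a phosphodiesterase (-0.59, 0.0285). Of the 22 genes of lipid synthesis, 3 were lower in the CDKN1A than in the SPP1 knockdown and 3 in the KDM1A than in the SPP1 knockdown, 13.6% each. SLC25A1 (-0.33, 0.00105), PCYT2, an enzyme of phospholipid synthesis (-0.25, 0.00593), and RDH11, a retinol dehydrogenase (-0.15, 0.03), were those lower in the CDKN1A knockdown, and RDH11 (-0.20, 0.00488), ACSS2 (-0.38, 0.00637) and PCYT2 (-0.20, 0.0217) those lower in the KDM1A knockdown. In CDKN1A over KDM1A, SLC25A1 was lower (-0.25, 0.00911), and VLDLR (0.93, 0.000188) and OSBPL8 (0.25, 0.00317) were higher by edgeR's test. These calls are 4.55% of the list of lipid synthesis and 20.0% of the tested genes of uptake, storage and efflux, against 14.9% of all genes. None of the 11 genes of SREBP processing was called by edgeR between knockdowns, with 2, 0 and 2 at an unadjusted p under 0.05 in CDKN1A over KDM1A, CDKN1A over SPP1 and KDM1A over SPP1, where DESeq2 called 2, 0 and 0.

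Between guides, ELOVL5, an elongase of polyunsaturated fatty acids (log2 -0.33, edgeR adjusted p = 0.00419), SCARB1, a lipoprotein receptor (-0.94, 0.013), and ERLIN1, an endoplasmic reticulum protein (-0.28, 0.0283), were lower with KDM1A guide 3 than with guide 2, and ACSS2, an acetyl-CoA synthetase, was higher (0.36, 0.0335). With SPP1 guide 1 set against guides 2 and 3, ACSL1, a fatty acyl-CoA synthetase (0.40, 0.0021), UBE2G2, a ubiquitin-conjugating enzyme (0.23, 0.0189), and SOAT1, which esterifies cholesterol (0.20, 0.0456), were higher. TECR, which takes part in the elongation of fatty acids (-0.29, 0.0189), SEC24D, a coat protein of vesicles (-0.22, 0.03), and ACSL3, another acyl-CoA synthetase (-0.29, 0.0448), were lower, all by edgeR's test. The calls between SPP1 guides are 18.2% of the list of SREBP processing, 13.6% of that of lipid synthesis, 1 of the 10 genes of uptake, storage and efflux and 0 of the LXR list, against 3.9% of all genes.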

How the data were processed

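Poly(A) mRNA was sequenced in 18 libraries prepared with NEBNext Ultra II, per the labels' protocols. The authors deposited 1 kallisto table per library (builds hg38 and GRCh38, per the submitters' processing notes) with estimated counts and TPM per Ensembl transcript. No source names the kallisto version, its settings or its use of strand. The deposited estimated (expected) counts are not scaled to depth, and the deposited TPM were used for levels between genes.

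Counts were summed per gene with GENCODE 29, which matched 169797 of 188753 transcripts (90.0%), leaving out 2.49 to 2.62% of the counts, and rounded. Genes were kept by filterByExpr (count minimum 10). edgeR 4.0.16 in R 4.3.3 fitted TMM-scaled quasi-likelihood models to all libraries, with a coefficient per group or per guide, without a replicate block. Adjusted p-values are from its F test, Benjamini-Hochberg over 13527 genes, with a threshold of 0.05, and the SE is the log2 fold change over the root of F. Log2 CPM for correlations and branch means carry a prior count of 2. The fits were tested on simulated data. Values in every library are given for members called against control or between guides (the 6 of smallest p in each comparison, or the 3 of smallest p where fewer were called), and in each further list up to 4 called genes. The members and lists were chosen with earlier results of these data known. Alternatives were DESeq2 1.42.0, RLE scaling, no filter, a replicate block, a length offset, only the groups compared, summed libraries of a guide, and leaving out each library and each guide. One result of the further lists is not reported here.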

Additional observations from a re-analysis of the deposited data

Results flagged for a closer look

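One library was far from the others of its group. FADS2 in CDKN1A guide 2 replicate 1 had 86.6 CPM, and the nearest of the other CDKN1A libraries had 83.2 CPM, in a group that spans a narrow range. This was 1 of 72 groups of named members examined, and chance flags about 1 in 20 groups.

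The other results stand out because guides against the same target differed by edgeR's test. Between CDKN1A guide 2 and guide 1, INSIG1 differed by a log2 change of 0.37. Between KDM1A guide 3 and guide 2, the log2 change was -1.02 for TM7SF2, -0.65 for FADS2, -0.47 for SC5D, -0.40 for DHCR7, -0.27 for FADS1 and -0.19 for ACLY. Between SPP1 guide 1 and the mean of guides 2 and 3, it was -1.01 for SCD, -0.93 for FADS2, -0.50 for FADS1, -0.49 for INSIG1, -0.35 for SREBF2, -0.30 for FDFT1, -0.29 for SQLE and -0.29 for MVD. What sets the guides apart was not tested.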

How the results depend on the processing

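Of 54 results on single members, 45 of them called, 11 kept their direction and their side of the threshold under every alternative, and none of 1616 alternative values reversed. Not all of these 11 were calls. The calls kept were TM7SF2 in KDM1A over control, CDKN1A over KDM1A and KDM1A over SPP1, and INSIG1, SCD and FADS2 between SPP1 guides. The others stayed not called: MYLIP in the SPP1 knockdown, SC5D between CDKN1A guides, and MSMO1, EBP and ELOVL6 between control guides. The rise of TM7SF2 in the KDM1A knockdown was called under all 34 alternatives, with log2 changes of 1.23 to 2.25. The counts of members called moved more, and the cause was not tested. The share of all genes called under each alternative is not given beside them. These counts therefore do not tell a change in the members from a change over all genes. Leaving out each library gave 0 to 2 for the CDKN1A knockdown (0 as reported), 3 to 6 for KDM1A (5) and 0 to 2 for SPP1 (2), 3 to 6 for CDKN1A over KDM1A (5), 4 to 11 for CDKN1A over SPP1 (10) and 1 to 10 for KDM1A over SPP1 (8). Between guides it gave 0 to 2 for CDKN1A (1), 2 to 7 for KDM1A (6), 4 to 10 for SPP1 (8) and 0 for control (0). DESeq2 called 3 members in the CDKN1A knockdown. Without a filter on low counts there were 1, 3 and 1 in the CDKN1A, KDM1A and SPP1 knockdowns. Fitted to the groups compared alone, the counts were 4, 3 and 1, and 8 for CDKN1A over KDM1A and 2 for KDM1A over SPP1. With a length offset they were 2 and 0 for KDM1A and SPP1, 2, 3 and 4 for the comparisons between knockdowns in the order above, and 0, 1 and 3 between the CDKN1A, KDM1A and SPP1 guides. With the libraries of a guide summed, which leaves fewer samples, they were 1 and 0 for KDM1A and SPP1 and 1, 0 and 1 between knockdowns. The replicate numbers do not pair the samples: deviations from the guide means correlated at -0.12 to 0.07 over 36 pairs of guides. With the replicate block 3 members were called for KDM1A and 1 for SPP1. For the CDKN1A knockdown, leaving out a guide gave 1 (KDM1A guide 2), 1 (KDM1A guide 3), 2 (SPP1 guide 1) and 3 (SPP1 guide 3). For KDM1A it gave 1 and 2 without control guides 1 and 2, and 3 without either CDKN1A guide, KDM1A guide 3 or SPP1 guide 1. For SPP1 it gave 0 and 1 without control guides 1 and 2, 5 without SPP1 guide 1, and 1 without any other guide. For CDKN1A over KDM1A it gave 2 without CDKN1A guide 2 or KDM1A guide 2. For CDKN1A over SPP1 it gave 3 and 0 without CDKN1A guides 1 and 2. For KDM1A over SPP1 it gave 1 without KDM1A guide 2, and 13 and 5 without SPP1 guides 1 and 2. Depth limits TM7SF2, ABCA1 and MYLIP most, with 17 to 152, 14 to 52 and 22 to 65 counts per library.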
